A study of Mus musculus with 26 samples.

Results

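Whole embryos in which *Traf7* had been deleted in all tissues were compared with wild-type embryos across all genes, with attention to the gene families, tissues and gene biotypes that differed. The 12 embryos of this comparison, 6 GLOko and 6 WT, were taken by their labels from the 26 embryos of the series. GLOko embryos are homozygous for a *Traf7* allele whose floxed segment was removed by E2a-Cre, a transgene whose promoter drives Cre in the early embryo. WT embryos are the controls of the same age, and all 12 were collected at embryonic day 9.5, freed of the yolk sac and sequenced as 1 library per embryo. An embryo is thus the unit of replication, and the labels do not say which embryos were littermates. In RNA of a whole embryo, fewer cells of a type and less RNA per cell cannot be told apart.

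At this stage the mouse embryo has a beating heart tube, a closing neural tube, somites along the trunk and primitive red cells in the first vessels. TRAF7 belongs to the TRAF signaling proteins and attaches ubiquitin to other proteins. Genes of housekeeping machinery (ribosomes, proteasome, spliceosome) are read in every cell, whereas genes of tissue identity report on how much of a tissue is present and on its state.

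Values are given as FPKM, in which a gene's fragments are divided by its length and by the size of the library. Reads in genes were 16913832 to 19491098 in GLOko and 16662293 to 23877092 in WT libraries. At equal read number, 16828 genes were detected in GLOko 1 and 17015 in GLOko 6, while the other 4 GLOko embryos had 18636 (GLOko 2) to 19816 and the WT embryos 19263 to 19719. GLOko 1 and WT 4 were low in heart muscle transcripts, as shown by tissue below. *Traf7* (ENSMUSG00000052752, chromosome 17, mm10) was 1.75, 2.52 and 3.12 FPKM at the lowest, median and highest GLOko embryo, against 11.1, 19.6 and 20.6 FPKM in WT embryos. The groups did not overlap, which fits the labels, and the difference on the log2 scale was -2.85 (standard error 0.17, adjusted p = 3.98e-06 by limma).

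The neural, somite, heart, endothelial, red cell and epithelial markers that define these tissues were above 1 FPKM in most embryos of both groups. *Sox2*, a factor of neural progenitors, ranged from 28.6 to 88.0 FPKM in GLOko and from 51.7 to 73.7 FPKM in WT embryos. *Epcam*, an adhesion molecule of epithelia, ranged from 22.5 to 41.8 FPKM in GLOko and from 18.6 to 28.8 FPKM in WT embryos. *Myh6*, the atrial myosin heavy chain, was listed at 0 in GLOko 1 and reached 48.9 FPKM in other GLOko embryos, against 1.015 to 18.98 FPKM in WT embryos. Markers of macrophages stayed under 1 FPKM in all 12 embryos, with *Csf1r* at most 0.973 FPKM in GLOko and 0.619 FPKM in WT embryos. The trophoblast marker *Tpbpa* was listed at 0 throughout.

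A gene was called where the adjusted p did not exceed 0.05, and 1833 of 17573 tested genes changed (10.4%), 953 of them higher (5.42%) and 880 lower (5.01%) in GLOko than in WT embryos. A difference of 1 or more on the log2 scale was found in 344 of them (1.96%), 226 higher (1.29%) and 118 lower (0.671%). In 1530 genes (8.71%) the 6 GLOko embryos did not overlap with the 6 WT embryos, 685 of them higher (3.9%) and 845 lower (4.81%). The split between higher and lower depended on scaling. When embryos were set to an equal FPKM total without mitochondrial-genome and globin genes, an alternative chosen after seeing the data, 72.6% of 1519 changed genes were higher, against 52.0% of 1833. When detected genes entered the fit as a covariate, 461 genes changed (2.62%), 313 higher (1.78%) and 148 lower (0.842%). Without GLOko 1, GLOko 2 and GLOko 6, the embryos with the fewest detected genes, 1988 changed (11.3%), 973 higher (5.54%) and 1015 lower (5.78%), and 1199 of them were among the 1833. Without GLOko 1 and WT 4 the count was 509, and without WT 2 alone it was 731.

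Direction went with gene length. The 14244 protein-coding genes were put in 10 bins of nearly equal size by length. Among the 1425 longest protein-coding genes, of 9660 bases and more, 271 were higher and 12 lower, with a median log2 fold change of 0.24. Among the 1425 shortest, of 66 to 1642 bases, 29 were higher and 133 lower, with a median of -0.17. Between them the share of higher genes was 3.23% to 5.69% in the bins from 1643 to 6001 bases and 10.1% in the bin from 7376 to 9659 bases. The share of lower genes was 8.92% from 1643 to 2348 bases and 2.11% from 7376 to 9659 bases. Under the equal FPKM total the medians of the bins from 2939 to 5074 bases turned from negative to positive, and those of the shortest and longest bins kept their sign.

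**Figure D1:**
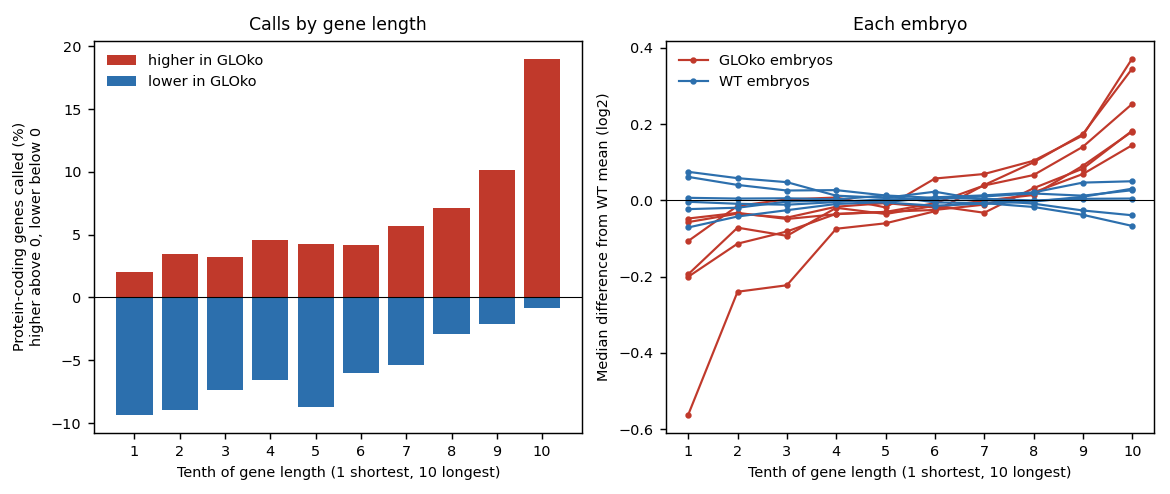
Protein-coding genes in 10 bins of gene length, the shortest at the left. Left, percent of genes called higher (above 0) and lower (below 0) in GLOko embryos. Right, median log2 difference from the WT mean for each embryo, 1 line per embryo. In the longest bin 271 of 1425 genes were higher and 12 lower.

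The same order was present in single embryos. The median of the longest bin minus that of the shortest bin, on the log2 scale and relative to the WT mean, was lowest at 0.19 (GLOko 4), had a median of 0.42 and was highest at 0.91 (GLOko 1), against -0.13, 0.01 and 0.12 in WT embryos. The groups did not overlap. The 2 embryos with the fewest detected genes were GLOko 1, at 0.91, and GLOko 6, at 0.38, while GLOko 3, GLOko 4 and GLOko 5, at 0.45, 0.19 and 0.24, had as many detected genes as WT. Within the fit without GLOko 1, GLOko 2 and GLOko 6, 265 genes of the longest bin were higher and 18 lower, and 26 of the shortest bin were higher and 148 lower. With detected genes as a covariate, these counts were 102 and 0 for the longest bin and 13 and 35 for the shortest.

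Several families of housekeeping machinery had more lower than higher genes. Mitochondrial ribosomal proteins, which make up the ribosome that translates the mitochondrial genome, held 23 lower genes and 1 higher gene of 77 tested, with a median log2 fold change of -0.33 against 0.01 over all genes. Their median gene length was 2255 bases, and among protein-coding genes from 1643 to 2348 bases 8.92% were lower, against 29.9% of this family. All 6 GLOko embryos, at -0.53 to -0.14 for the mean of the list on the log2 scale, lay below all 6 WT embryos, at -0.03 to 0.08. *Mrpl34*, of the large subunit, was 48.1, 66.2 and 85.4 FPKM (lowest, median, highest) in GLOko embryos, against 96.4, 99.9 and 119 FPKM in WT embryos. The log2 fold change of this gene was -0.63 (standard error 0.12, adjusted p = 0.0106 by limma), and the embryos of the groups did not overlap. *Mrpl4* (-0.51) and *Mrps26* (-0.71), of the large and the small subunit, fell as well, and *Mrpl45* was the gene that rose (0.43). In the fit without GLOko 1, GLOko 2 and GLOko 6 the family had 25 lower and 0 higher genes. It had 11 lower genes under the equal FPKM total, 4 with detected genes as a covariate and 4 without GLOko 1 and WT 4.

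Proteins that carry others into the mitochondrion followed, with 9 lower and 0 higher of 35 genes of mitochondrial import (median -0.32). *Timm50*, which receives precursor proteins at the inner membrane, was 32.8, 37.1 and 40.6 FPKM in GLOko embryos, against 43.0, 47.8 and 49.8 FPKM in WT embryos. *Phb2*, a prohibitin of the inner membrane, fell by 0.38 on the log2 scale. Of the 35 genes 4 were lower without the 3 GLOko embryos named above, 3 under the equal FPKM total and 0 with the covariate or without GLOko 1 and WT 4.

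The proteasome, which degrades ubiquitin-tagged proteins, had 10 lower and 0 higher of 45 genes (median -0.30). *Psmc1*, an ATPase of its regulatory cap, was 78.7, 104 and 123 FPKM in GLOko embryos, against 147, 157 and 161 FPKM in WT embryos (log2 fold change -0.59, standard error 0.11, adjusted p = 0.0105 by limma). *Psmb6*, a catalytic subunit of the core, fell by 0.48. Of the list 22.2% were lower, at a median length of 2800 bases, against 7.36% of protein-coding genes from 2349 to 2937 bases. GLOko 2 was lowest in this list, at -0.82, with the other 5 GLOko embryos at -0.33 to -0.14 and WT embryos at -0.08 to 0.09. Of the 45 genes 15 were lower without GLOko 1, GLOko 2 and GLOko 6, 3 under the equal FPKM total, 1 with the covariate and 2 without GLOko 1 and WT 4. Chaperonins and heat shock proteins, which fold proteins, had 5 lower and 0 higher of 30 genes, among them *Hspa8* (-0.43) and *Dnaja1* (-0.93), with a median of -0.08. The list had 1 lower gene under the equal FPKM total and 0 with the covariate.

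Of 83 spliceosome genes 16 were lower and 2 higher (median -0.30). At a median length of 4076 bases 19.3% were lower, against 8.71% of protein-coding genes from 3566 to 4272 bases. The 2 higher genes were *Prpf8* (0.70), the scaffold at the catalytic center, and *Sf3b1* (0.46), which contacts the branch site, with gene lengths of 7461 and 11370 bases. *Sf3b4* (-0.75), *Hnrnpab* (-0.86) and *Lsm2* (-0.54), lower, had lengths of 2162, 2782 and 3152 bases. *Hnrnpab*, an RNA-binding protein, was 153, 313 and 414 FPKM in GLOko embryos, against 496, 532 and 563 FPKM in WT embryos. The spliceosome had 32 lower genes without GLOko 1, GLOko 2 and GLOko 6, 6 under the equal FPKM total, 1 with the covariate and 2 without GLOko 1 and WT 4. Of 38 genes of ribosome biogenesis 7 were lower and 0 higher, including the RNA polymerase I factor *Ubtf* (-0.56) and the snoRNP proteins *Gar1* (-0.67) and *Nhp2* (-0.75). Lower genes made up 18.4% of this list, at a median length of 4125.5 bases, in the same length bin as the spliceosome. The list had 5 lower genes under the equal FPKM total, 0 with the covariate and 1 without GLOko 1 and WT 4. The 87 proteins of the cytosolic ribosome itself had 1 lower gene, *Rps4l* (-0.43), and 0 higher, with a median of -0.05.

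RNA polymerases and general factors had 11 lower and 4 higher of 93 genes, translation factors 9 and 2 of 73, and DNA replication 7 and 1 of 59. Lower genes were 11.8%, 12.3% and 11.9% of these lists, against 5.01% of all genes. The median lengths were 4047, 3639 and 4097 bases, and 8.71% of protein-coding genes from 3566 to 4272 bases were lower. With the covariate the lower genes of these lists numbered 3, 2 and 1. In mitosis, 6 genes were higher and 5 lower of 50. The higher ones included *Cenpf* (0.57), *Cenpe* (0.55) and the proliferation marker *Mki67* (0.44), whose genes are 15433, 8620 and 10061 bases long. Among the lower ones were *Cdc20* (-0.40), an activator of the anaphase-promoting complex, *Cdca8* (-0.40) and *Cdca3* (-0.28), at 1868, 5177 and 2866 bases. Under the equal FPKM total 6 mitosis genes were higher and 2 lower, and with the covariate 3 and 0.

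**Figure D2:**
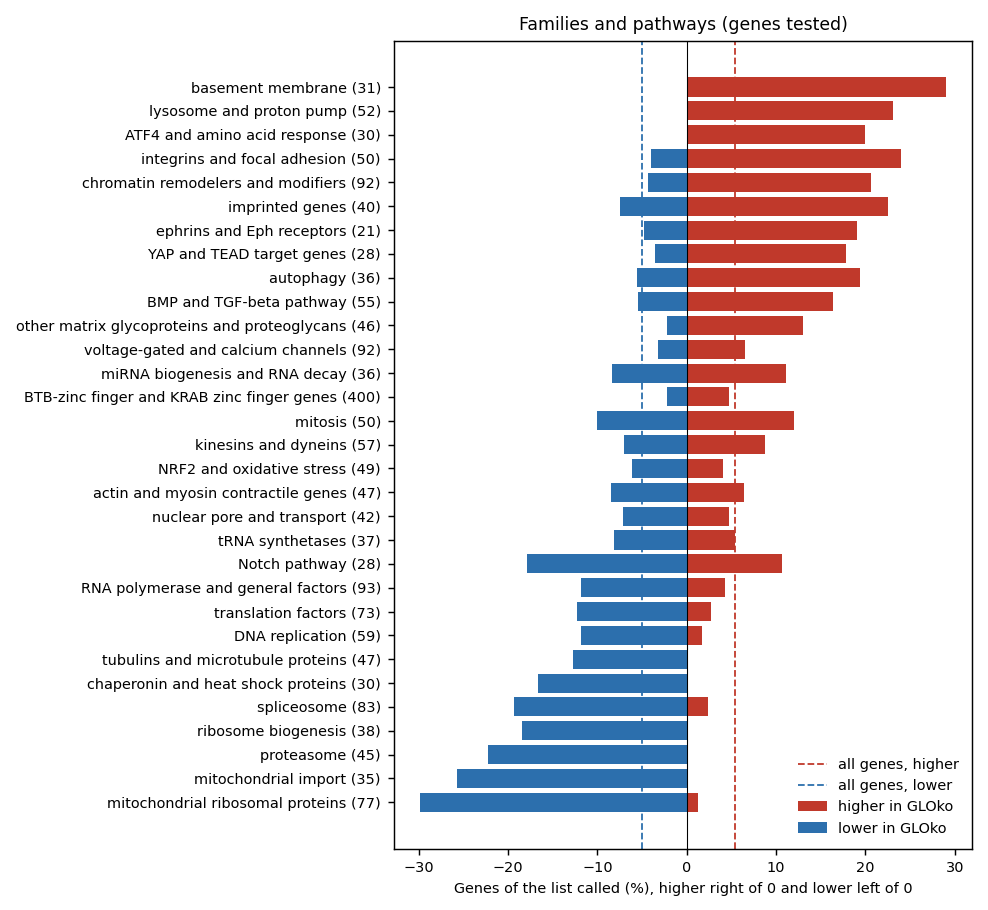
Percent of the tested genes of each family or pathway that were called higher (right of 0) and lower (left of 0) in GLOko embryos, for the lists reported here that had at least 5 genes called. Dashed lines give the percent of all 17573 genes, 5.42% higher and 5.01% lower. Basement membrane stands at the top with 29.0% higher, and mitochondrial ribosomal proteins at the bottom with 29.9% lower.

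Basement membrane genes, which code for the sheet of laminin, collagen IV and proteoglycan under epithelia and vessels, had 9 higher and 0 lower of 31 (median 0.51). Their median length was 7464 bases, and 10.1% of protein-coding genes of 7376 to 9659 bases were higher. *Lama5*, a laminin chain, was 5.11, 7.05 and 11.6 FPKM in GLOko embryos, against 2.55, 3.06 and 3.75 FPKM in WT embryos (log2 fold change 1.22, standard error 0.19, adjusted p = 0.00451 by limma). *Frem2* (1.01) and *Fras1* (1.04), which form a complex that anchors the epidermis, rose together with it, and each of these genes was higher in every GLOko than in any WT embryo. Leaving out GLOko 1, GLOko 2 and GLOko 6, the list had 19 higher and 0 lower genes, and it had 9 higher with the covariate and 8 without GLOko 1 and WT 4. The list mean was highest in GLOko 2, at 1.30, and lowest in GLOko 1, at 0.08, which lay within the WT range of -0.16 to 0.09.

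Other genes at the cell surface and in the matrix were higher in part. Integrins and focal adhesion genes had 12 higher and 2 lower of 50 (median 0.26), led by the actin-linked scaffold *Lpp* (1.09) and the filamin gene *Flna* (0.54), which cross-links actin, with *Ilk* (-1.04) and *Limd1* (-0.37) lower. Higher genes made up 24.0% of this list, at a median length of 6072.5 bases, against 7.15% of protein-coding genes from 6002 to 7375 bases. *Flna* was 88.5, 99.5 and 106 FPKM in GLOko embryos, against 57.2, 68.0 and 77.3 FPKM in WT embryos. *Ilk* overlaps another transcribed gene, and its value is uncertain for that reason. Of the other matrix glycoproteins and proteoglycans 6 were higher and 1 lower of 46. Fibronectin (*Fn1*), which guides migrating cells, was 36.2, 50.3 and 117 FPKM in GLOko embryos, against 20.3, 23.01 and 28.7 FPKM in WT embryos. The elastic fiber gene *Mfap2* (-0.63) was the lower one. Of fibrillar collagens and their processing enzymes 4 were higher and 0 lower of 34, and the lysyl oxidase gene *Loxl2* (1.52), which cross-links collagen, had no overlap between groups.

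Contractile genes of the actin and myosin family changed in both directions, 3 higher and 4 lower of 47. The nonmuscle myosin heavy chains *Myh10* (0.67) and *Myh9* (0.63) rose, and the actin-binding proteins *Dbn1* (-0.83), cofilin (*Cfl1*, -0.44) and profilin (*Pfn1*, -0.43) fell. Of 28 targets of YAP and TEAD, the effectors of the Hippo pathway, 5 were higher and 1 lower, with *Tead1* (0.52) and *Amotl2* (0.41) among the higher and *Foxf2* (-0.99) the lower one.

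Of 52 genes for lysosomal enzymes, membrane proteins and the proton pump 12 were higher and 0 lower (median 0.34), with a median gene length of 3708 bases, while 4.28% of protein-coding genes from 3566 to 4272 bases were higher. *Ctsl*, the protease cathepsin L, was 25.4, 31.5 and 54.6 FPKM in GLOko embryos, against 19.9, 22.3 and 23.8 FPKM in WT embryos (log2 fold change 0.67, standard error 0.16, adjusted p = 0.0208 by limma). *Naglu* (0.91), an enzyme that breaks down heparan sulfate, and *Atp6v0a1* (0.49), a subunit of the proton pump, rose too. The list held 14 higher genes without GLOko 1, GLOko 2 and GLOko 6, 1 with detected genes as a covariate and 0 without GLOko 1 and WT 4. Autophagy genes had 7 higher and 2 lower of 36, with *Atg9a* (0.76) and *Atg2b* (0.80) among the higher ones and *Atg4d* (-0.86) and *Atg101* (-0.54) the lower ones.

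Of 30 genes of the ATF4 and amino acid response, which follows shortage of amino acids or stress of the endoplasmic reticulum, 6 were higher and 0 lower (median 0.57). *Vldlr*, a lipoprotein receptor, and *Stc2* (2.24), a secreted glycoprotein, led this list, and both are also known to respond to low oxygen. The list had 2 higher genes without GLOko 1, GLOko 2 and GLOko 6, and 2 with the covariate or without GLOko 1 and WT 4. Of 28 genes of the unfolded protein response 4 were higher and 0 lower, among them the chaperone gene *Hsp90b1*, at 234, 255 and 281 FPKM in GLOko embryos, against 183, 201 and 209 FPKM in WT embryos. Among 49 genes of oxidative stress 2 were higher and 3 lower (10.2% changed, near the 10.4% of all genes). The higher ones were the metallothionein gene *Mt1* (1.67) and heme oxygenase (*Hmox1*, 0.96). Of 37 p53 targets and apoptosis genes 0 were higher and 3 lower, namely *Mcl1* (-0.43), *Aen* (-0.82) and *Btg2* (-0.48).

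Of 92 chromatin remodelers and modifiers 19 were higher and 4 lower (median 0.16), at a median gene length of 7953 bases. The higher genes were 20.7% of the list, against 10.1% of protein-coding genes from 7376 to 9659 bases. *Tet1*, which oxidizes methylated cytosine, was 2.76, 4.88 and 8.39 FPKM in GLOko embryos, against 1.66, 1.70 and 1.89 FPKM in WT embryos (log2 fold change 1.43, standard error 0.23, adjusted p = 0.00544 by limma). *Smarca1* (0.66) and the histone demethylase *Kdm4b* (0.70) rose, while *Smarce1* (-0.51), *Smarcd1* (-0.34) and *Sirt7* (-0.86) fell. With the covariate 10 of the 92 were higher and 0 lower, and without GLOko 1 and WT 4 these were 9 and 0. Of the 40 imprinted genes, expressed from 1 parental allele, 9 were higher and 3 lower. *Igf2r* (1.16), which clears the growth factor IGF2, and its antisense RNA *Airn* (1.09) both rose, but these genes overlap and the counting is not known to use strand, so that their reads cannot be told apart. *Nnat* (-0.74), *Peg12* (-0.74) and *Ndn* (-0.43) fell.

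Of 55 genes of the BMP and TGF-beta pathway 9 were higher and 3 lower, including the receptors *Bmpr2* (0.68) and *Bmpr1a* (0.44) on the higher side and the ligand *Gdf11* (-0.50) and the targets *Id3* (-0.37) and *Id4* (-0.67) on the lower. In the Notch pathway 3 of 28 were higher and 5 lower. The receptors *Notch3* (0.65) and *Notch2* (0.57) rose, and *Hes6* (-0.69) and the targets *Heyl* (-1.67) and *Hes5* (-1.01) fell. *Hes5*, which holds neural progenitors back from becoming neurons, was 4.54, 6.88 and 13.6 FPKM in GLOko embryos, against 12.8, 14.1 and 18.8 FPKM in WT embryos, with an overlap of the groups. With the covariate the BMP and TGF-beta list had 4 higher and 1 lower genes and the Notch list 1 and 3. In the FGF list 4 of 40 were higher and 0 lower, in the Wnt list 2 and 1 of 68, and among semaphorins, plexins, Slits and netrins 4 and 0 of 48. Ephrins and Eph receptors had 4 higher and 1 lower of 21, the lower one being *Efna2* (-0.67).

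Among tissues, the nervous system was the one with more than 2 lower genes and no higher gene. Of 30 genes of neural progenitors 8 were lower and 0 higher, with a median log2 fold change of -0.56. *Nes*, the filament of progenitors, was 17.8, 24.4 and 26.3 FPKM in GLOko embryos, against 34.3, 37.1 and 42.2 FPKM in WT embryos (log2 fold change -0.70, standard error 0.11, adjusted p = 0.00348 by limma). *Sox3*, a factor that maintains progenitors, was 13.9, 21.9 and 32.2 FPKM in GLOko embryos, against 38.6, 44.3 and 52.1 FPKM in WT embryos. Neither gene had an overlap between the groups, and the list mean of all 6 GLOko embryos, at -1.11 to -0.23, was below that of all WT embryos, at -0.13 to 0.19. Of 47 genes of early neurons 4 were lower and 0 higher, including the proneural factors *Neurog1* (-1.21) and *Neurog2* (-1.10). The list mean was -1.14 in GLOko 5, -1.12 in GLOko 6 and 0.36 in GLOko 2, against -0.39 to 0.46 in WT embryos, and the groups overlapped. In the fit without GLOko 1, GLOko 2 and GLOko 6, 20 of the 47 neuronal genes and 9 of the 30 progenitor genes were lower. With the covariate 1 of each was lower, and without GLOko 1 and WT 4 these were 2 neuronal and 4 progenitor genes. Under the equal FPKM total 5 progenitor genes were lower. Of 30 factors of brain regions 0 were called by limma and 0 by limma-voom on recovered reads, with 3 at an unadjusted p under 0.05.

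**Figure D3:**
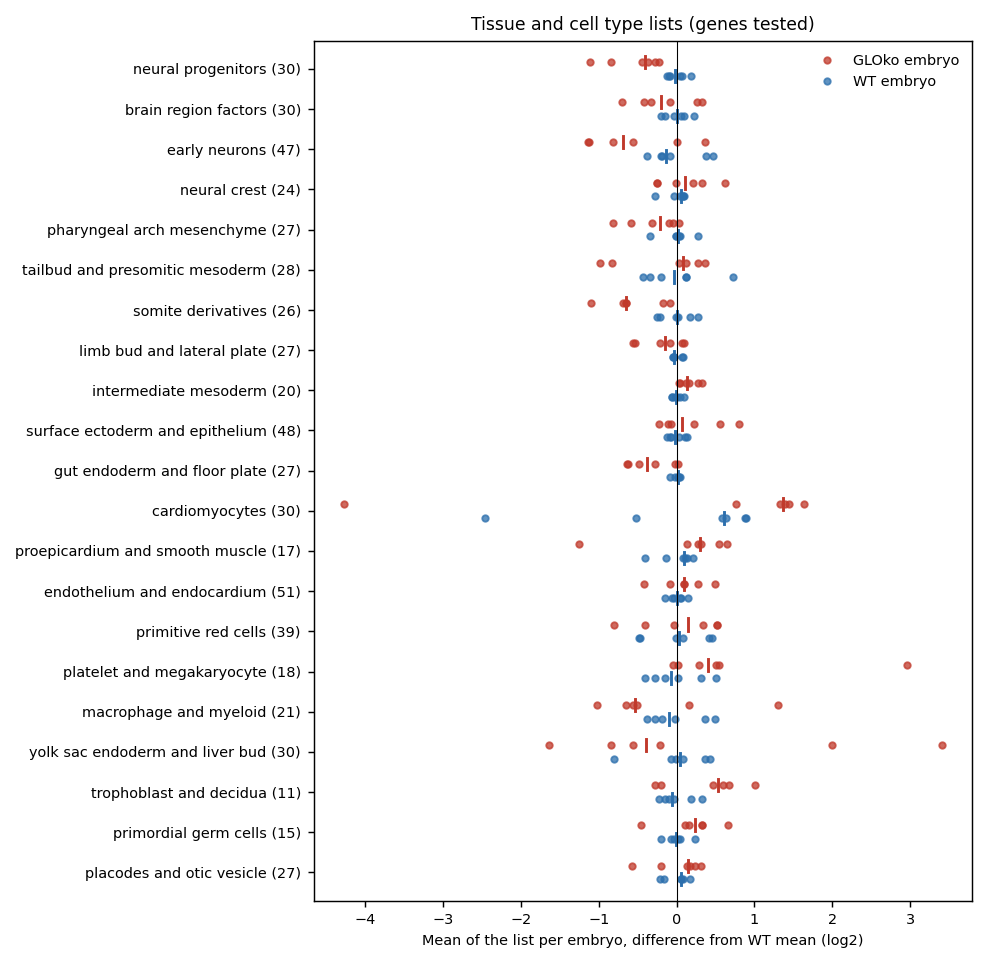
Mean log2 difference from the WT mean over the genes of each tissue list, with 1 point per embryo, GLOko above WT for each list, and a bar at the group median. The number of genes tested stands in brackets. For neural progenitors all GLOko embryos lie below the WT embryos, and for cardiomyocytes GLOko 1 lies at -4.28 and WT 4 at -2.46.

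Somite derivatives had 3 lower genes and 1 higher gene of 26 (median -0.41). The muscle factor *Myog* was 0, 0.172 and 1.27 FPKM in GLOko embryos, against 0.675, 2.80 and 5.45 FPKM in WT embryos, and *Pax1* (-1.10), a factor of the sclerotome, and *Myf6* (-1.73) fell as well. *Met* (0.58), the receptor of migrating muscle precursors, was the higher one. With the covariate or without GLOko 1 and WT 4, 0 of the 26 were higher and 0 lower. In the tailbud and presomitic mesoderm *Greb1* (0.75) rose and *Lfng* (-0.59), a modifier of Notch in the segmentation clock, fell, of 28 genes. Pharyngeal arch mesenchyme had 2 lower genes of 27, *Foxf2* and *Lhx8* (-1.69), and the notochord gene *Noto* (-2.06) was the lower gene among 27 of gut endoderm and floor plate. In limb bud and lateral plate (27 genes) limma called 0 genes and limma-voom 1, with 3 at an unadjusted p under 0.05, and in placodes and otic vesicle (27) these counts were 0, 2 and 5.

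In surface ectoderm and epithelium 2 of 48 genes were higher and 0 lower, a share of 4.17% that is below the 5.42% of all genes. Without GLOko 1, GLOko 2 and GLOko 6, 10 of the 48 were higher. The list mean was 0.80 in GLOko 5, 0.56 in GLOko 4 and -0.23 to 0.23 in the other 4 GLOko embryos, against -0.13 to 0.13 in WT embryos. *Krt19*, a keratin of simple epithelium, was 37.2, 47.3 and 55.4 FPKM in GLOko embryos, against 13.9, 16.5 and 24.1 FPKM in WT embryos (log2 fold change 1.48, standard error 0.15, adjusted p = 4.46e-04 by limma). *Dsp* (0.89), the desmosome protein desmoplakin, rose too, and claudins and tight junction genes had 3 higher and 0 lower of 33. Neural crest had 3 higher genes of 24, the receptor genes *Kit* (1.05) and *Ret* (1.04) and *Mef2c* (0.67), which are also expressed elsewhere in the embryo. Endothelium and endocardium had 7 higher and 3 lower of 51. *Vwf* (0.97), *Flt1* (1.24) and *Flt4* (0.67) rose, and *Heyl*, *Gja4* (-1.21) and *Nos3* (-0.88), genes of arteries and of vessels under flow, fell. With the covariate 0 of the 51 were higher and 1 lower, and without GLOko 1 and WT 4 0 were higher and 2 lower.

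In other tissues single embryos stood apart. Of 30 cardiomyocyte genes 0 were called by limma and 0 by limma-voom, with 1 at an unadjusted p under 0.05. The list mean of GLOko 1 stood at -4.28 and the other 5 GLOko embryos at 0.77 to 1.63, against -2.46 in WT 4 and -0.52 to 0.89 in the other 5 WT embryos. Among 30 genes of yolk sac endoderm and liver bud, *Lrp2* (0.85) and *Mttp* (1.18) rose. The list mean was 3.42 in GLOko 5 and 2.00 in GLOko 4, and -1.64 to -0.21 in the other 4 GLOko embryos, against -0.80 to 0.43 in WT embryos. *Afp*, a defining marker, reached 168 FPKM among GLOko embryos and 16.5 FPKM among WT embryos, with 45.3 FPKM in GLOko 4. Platelet and megakaryocyte genes averaged 2.96 in GLOko 2 and -0.05 to 0.55 in the other 5 GLOko embryos, against -0.41 to 0.51 in WT embryos. *Pf4*, a platelet chemokine chosen after its values were seen, was highest in GLOko at 85.0 FPKM, against 5.96 FPKM at the highest in WT embryos. Of 39 genes of primitive red cells *Tfrc* (0.66), the transferrin receptor, was the 1 that changed.

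The table also assigns genes to families of transcription factors, a grouping taken up after the table had been seen. Over all 1233 tested factors 71 were higher and 60 lower, 10.6% against 10.4% of all genes. Of 171 homeobox genes 1 was higher and 9 lower (5.26%, near the 5.01% of all genes), and 47 had a positive log2 fold change (median -0.25). Without GLOko 1, GLOko 2 and GLOko 6 these were 2 higher and 6 lower with a median of -0.07. Of 85 bHLH genes 5 were higher and 13 lower (median -0.24), and the Neurog and Hes genes named above belong to this family. Of 490 C2H2 zinc finger genes 29 were higher (5.92%, near the 5.42% of all genes) and 9 lower (median 0.13), and 21 and 12 without those 3 embryos. Higher ones included *Rlf* (1.09), *Rreb1* (0.76) and *Zfp292* (0.80). bZIP factors had 6 higher and 1 lower of 44, led by *Fosl2* (1.13) and *Fos*. In the forkhead family *Foxo3*, which acts when insulin signaling is low, was 9.69, 14.6 and 41.1 FPKM in GLOko embryos, against 5.56, 6.16 and 7.07 FPKM in WT embryos, and *Foxo1* (0.79) and *Foxj3* (0.55) rose with it, whereas *Foxm1* (-0.37) and *Foxf2* fell. Median gene length was 2744 bases for homeobox, 2729 for bHLH and 4389 for C2H2 zinc finger genes. The 3 lists of *Hox* genes, with medians of -0.32 (anterior, 15 genes), -0.35 (middle, 12) and -0.46 (posterior, 11), had 0 genes called by limma or limma-voom, and at an unadjusted p under 0.05 there were 3 anterior ones.

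Families defined by the letters of the gene symbol, 186 with at least 10 tested genes, were counted in the same way. The highest shares of changed genes were in *Lrp* (4 higher and 1 lower of 12, 41.7%) and *Kdm* (7 and 0 of 17, 41.2%). Their median gene lengths were 7219 and 8225 bases. Of protein-coding genes 7.15% were higher from 6002 to 7375 bases and 10.1% from 7376 to 9659 bases. Without GLOko 1 and WT 4, *Lrp* had 1 higher and 1 lower gene and *Kdm* 3 and 0. *Kdm* genes code for histone lysine demethylases, many of which need oxygen. *Kdm7a* was 6.64, 10.9 and 26.5 FPKM in GLOko embryos, against 3.23, 3.56 and 5.36 FPKM in WT embryos, and *Kdm5a* (0.62) and *Kdm4b* rose as well. Among *Lrp* genes, receptors of lipoproteins and of Wnt, *Lrp1* (1.06), *Lrp2* and *Lrp6* (0.45) rose and *Lrp3* (-0.60) fell. Other families with large shares were *Timm* (0 and 5 of 14) and *Lsm* (0 and 4 of 13), *Mrpl* (1 and 14 of 50), *Mrps* (0 and 9 of 31) and *Psmd* (0 and 4 of 14). The *Vps* family of vesicle sorting had 6 higher and 1 lower of 33, and its long members *Vps13b* (1.18), *Vps13c* (0.75) and *Vps13a* (0.81), which carry lipid between membranes, all rose. The lowest median was that of 13 *Nkx* homeobox genes, -0.97, with 2 of them lower and 0 higher. In 39 of the 186 families limma called no gene.

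By biotype, protein_coding genes had 908 higher and 829 lower of 14244 (12.2% changed, against 10.4% of all genes). Of the 3329 genes of other biotypes 45 were higher and 51 lower (2.88%). Processed pseudogenes had 15 higher and 24 lower of 1271 (3.07%), and lincRNAs 9 and 7 of 516 (3.10%). Antisense RNAs had 6 and 3 of 463 (1.94%). Limma and limma-voom called 0 genes among 109 miRNA and 60 snRNA genes, with 7 and 8 at an unadjusted p under 0.05. *Pgk1-rs7* (1.11), *Ldha-ps2* (1.33) and *Bnip3l-ps* (0.99) were higher pseudogenes whose parents belong to glycolysis and the response to low oxygen, and since copies share sequence with their parent genes their values are uncertain. Among small RNAs the snoRNA *Gm27326* was listed at 0 in all 6 GLOko embryos and at 0, 1.80 and 5.73 FPKM in WT embryos (adjusted p = 0.0133 by limma). snoRNA genes had a median of -0.42, which was -0.06 without GLOko 1, GLOko 2 and GLOko 6 and -0.14 without GLOko 1 and WT 4. The median of miRNA genes, -0.35, was 0 without GLOko 1 and WT 4.

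Shares of reads by biotype, and those of single abundant genes, were tested as well. The Mt_rRNA biotype, both rRNAs of the mitochondrial genome, took 0.0364 ± 0.0058% of reads in GLOko embryos, against 0.0174 ± 0.0047% for WT (SD, n = 6 per group). The ranges, 0.0300% to 0.0435% in GLOko and 0.0132% to 0.0260% in WT embryos, did not overlap (exact permutation test over 924 divisions of the embryos, two-sided, p = 0.00216, the smallest possible, adjusted p = 0.0103 over 19 shares). *mt-Rnr1*, the small rRNA, was 180, 192 and 248 FPKM in GLOko embryos, against 64.7, 77.8 and 139 FPKM in WT embryos. The share of *mt-Rnr2*, the large rRNA, was 0.0118% to 0.0217% in GLOko embryos, against 0.00699% to 0.0125% in WT embryos, with an overlap (exact permutation test, p = 0.00649, adjusted p = 0.0247). *mt-Tp*, the tRNA for proline, was 443, 769 and 1072 FPKM in GLOko embryos, against 124, 159 and 355 FPKM in WT embryos. Another tRNA of this genome, *mt-Tl1*, was lower, at 0 to 0.779 FPKM in GLOko and 0.558 to 6.34 FPKM in WT embryos, with an overlap. For so short a gene these values stand for few reads. Of the 15 tested genes of the Mt_tRNA biotype 1 was called higher and 1 lower, and 13 had a positive log2 fold change (median 1.11). The share of transcribed unprocessed pseudogenes was also without overlap, at 0.0144 ± 0.0022% in GLOko embryos, against 0.0121 ± 0.00035% for WT (SD, n = 6 per group, exact permutation test, p = 0.00216, adjusted p = 0.0103).

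**Figure D4:**
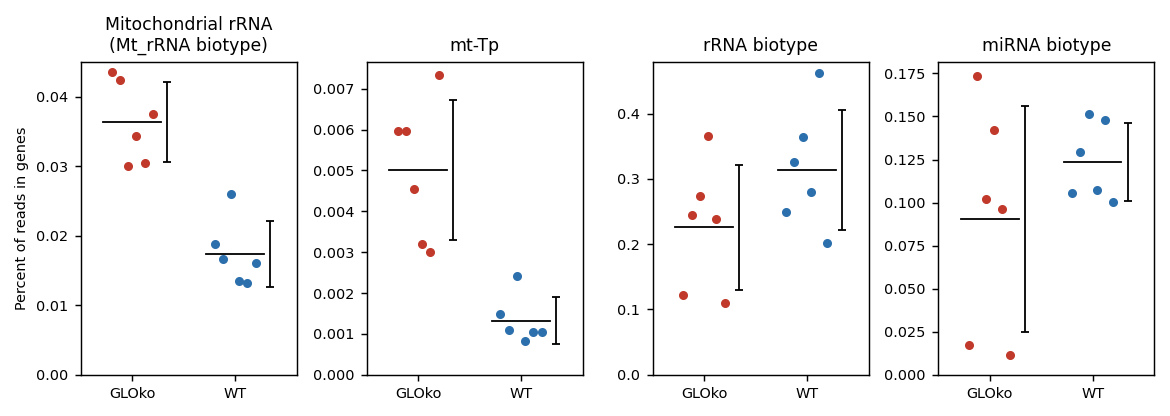
Percent of reads in genes that fell on the Mt_rRNA biotype, on the gene *mt-Tp*, on the rRNA biotype and on the miRNA biotype. Each point is an embryo, horizontal lines are means and error bars are SD (n = 6 each). GLOko embryos lie above WT embryos in the first 2 panels, and in the miRNA panel GLOko 1 and GLOko 6 lie at 0.0171% and 0.0116%. The rRNA panel is nearly all the gene *CT010467.1*, and the miRNA panel mostly the gene *Gm23935*.

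Other shares separated 2 embryos from the rest and not the groups. The miRNA biotype took 0.0171% of reads in GLOko 1 and 0.0116% in GLOko 6, and 0.0960% to 0.174% in the other 4 GLOko embryos, against 0.1003% to 0.151% in WT embryos. Most of it was *Gm23935*, a gene of 57 bases annotated as a miRNA (chromosome 16, 11144125 to 11144181, mm10). It was 2608 FPKM in GLOko 1 and 1742 FPKM in GLOko 6, and at least 15701 FPKM in the other 4 GLOko embryos, against 16278 FPKM and more in WT embryos. The sequence of this gene is shown because 2 other genes of the annotation are identical to it and 1 more differs at the base in capitals, so that reads from these copies, on chromosomes 9 (56223715 to 56223771), 4 and 13, cannot be told apart.
Gm23935: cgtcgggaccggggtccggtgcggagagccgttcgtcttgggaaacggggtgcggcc
Gm24270: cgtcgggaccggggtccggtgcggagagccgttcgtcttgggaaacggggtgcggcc
Gm24187: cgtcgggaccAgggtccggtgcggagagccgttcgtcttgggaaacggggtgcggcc
The rRNA biotype was also lowest in GLOko 1, at 0.121%, and GLOko 6, at 0.110%, against 0.238% to 0.365% in the other 4 GLOko and 0.202% to 0.462% in WT embryos. Nearly all of it was the gene *CT010467.1*, at 0.121% in GLOko 1 and 0.110% in GLOko 6. Each of these biotype shares thus follows mostly 1 gene, and they do not measure miRNAs or rRNAs as classes. The same 2 embryos had the fewest detected genes and the lowest means of the 54 replication-dependent histone genes, -1.41 in GLOko 1 and -1.21 in GLOko 6, with -0.18 to 0.03 in the other 4 GLOko and -0.22 to 0.33 in WT embryos. The part of the number of detected genes in these values was not tested.

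The single genes with the largest changes outside the 5 lists set aside are shown embryo by embryo. Those lists cover low oxygen, glycolysis, glycogen, the respiratory chain and the mitochondrial genome. They are not complete, so genes tied to these processes can remain, such as *Sdhaf1* below. On the higher side, *A2m*, the protease inhibitor alpha-2-macroglobulin, was 1.27, 2.09 and 7.50 FPKM in GLOko embryos, against 0.264, 0.445 and 1.00 FPKM in WT embryos (log2 fold change 2.24, standard error 0.44, adjusted p = 0.0115 by limma). *H2-Ab1*, the beta chain of an MHC class II molecule (chromosome 17, 34263209 to 34269418, mm10), was 5.56, 10.8 and 32.5 FPKM in GLOko embryos, against 1.74, 2.54 and 4.95 FPKM in WT embryos. Its partner genes, named after their values were seen, stayed low. *H2-Aa*, under the filter on low values, was at or under 0.108 FPKM in GLOko and 0.0894 FPKM in WT embryos and *Cd74* was at most 0.472 FPKM in GLOko and 0.387 FPKM in WT embryos. *Plekha2*, an adaptor that binds membrane phosphoinositides, was 7.07, 12.1 and 20.5 FPKM in GLOko embryos, against 1.94, 3.16 and 4.63 FPKM in WT embryos. *Arrdc3*, an arrestin-like protein of receptor traffic, reached 108 FPKM in GLOko 2 and had a median of 27.1 FPKM in GLOko embryos, against a median of 10.97 FPKM and a highest value of 13.6 FPKM in WT embryos.

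The rest of the 12 leading higher genes were the aldehyde oxidase *Aox4* (2.05), the mitochondrial protein gene *Mgarp* (1.96), the transcription regulator *Crebrf* (1.72), beta-synuclein *Sncb* (1.71), *Fos* (1.70) and the noncoding *Gm17055* (2.19), *1700001L05Rik* (1.83) and *Gm45494* (1.69). *Mgarp* was 6.71, 10.9 and 21.3 FPKM in GLOko embryos, against 1.93, 2.60 and 5.56 FPKM in WT embryos. WT 3 was the highest WT embryo for *A2m*, *H2-Ab1*, *Mgarp* and *1700001L05Rik*, and GLOko 2 the highest GLOko embryo for *A2m*, *H2-Ab1*, *Mgarp*, *Plekha2*, *Arrdc3* and *Crebrf*. Of the 12, 11 stayed changed without any 1 embryo, *Crebrf* being the exception, and 11 without GLOko 1, GLOko 2 and GLOko 6, where *Sncb* had an adjusted p = 0.0558 by limma. With detected genes as a covariate 7 of the 12 stayed changed.

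**Figure D5:**
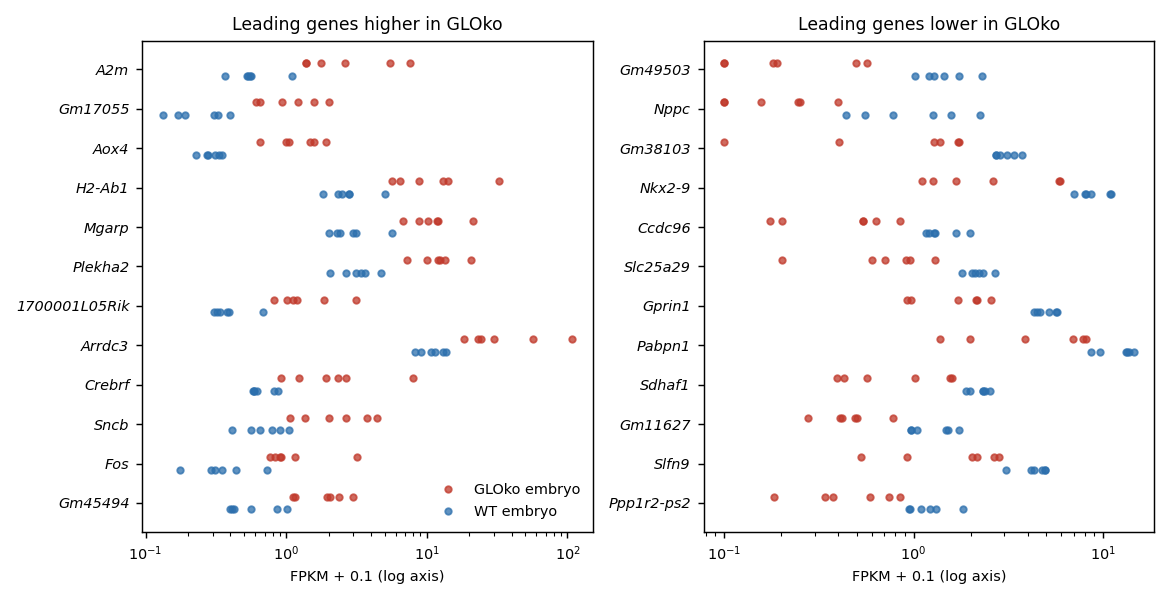
FPKM of the 12 leading higher (left) and 12 leading lower genes (right), on a log axis after adding 0.1, with 1 point per embryo and GLOko above WT for each gene. No gene has an overlap between groups, as the choice of genes required, and points at 0.1 are values listed at 0.

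On the lower side, *Gprin1*, a protein of growing neurites, was 0.826, 1.83 and 2.45 FPKM in GLOko embryos, against 4.25, 4.81 and 5.61 FPKM in WT embryos (log2 fold change -1.60, standard error 0.24, adjusted p = 0.0038 by limma). *Nkx2-9*, a homeobox factor of the ventral neural tube, was 1.00, 2.06 and 5.83 FPKM in GLOko embryos, against 6.94, 8.28 and 10.998 FPKM in WT embryos. Next to it on the same strand of chromosome 12, *Gm38103* (56609613 to 56610476, mm10), a transcript of the biotype TEC, was 0, 1.23 and 1.64 FPKM in GLOko embryos, against 2.61, 2.90 and 3.64 FPKM in WT embryos. *Pabpn1*, which binds the poly(A) tail in the nucleus, was 1.28, 5.33 and 8.07 FPKM in GLOko embryos, against 8.55, 13.3 and 14.5 FPKM in WT embryos. It was lowest in GLOko 1 and GLOko 6 and lost its call in 6 of the 12 fits that leave out 1 embryo.

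The other leading lower genes were the lincRNA *Gm49503* (-2.73), the natriuretic peptide gene *Nppc* (-2.39), *Ccdc96* (-1.72), *Slc25a29* (-1.67), a mitochondrial carrier of basic amino acids, *Sdhaf1* (-1.47), an assembly factor of respiratory complex II, *Gm11627* (-1.43), the schlafen gene *Slfn9* (-1.42) and the pseudogene *Ppp1r2-ps2* (-1.38), which lies inside the transcribed gene *Iqsec1*. Of the 12, 8 stayed changed without any 1 embryo, the exceptions being *Gm38103*, *Pabpn1*, *Slfn9* and *Ppp1r2-ps2*. Without GLOko 1, GLOko 2 and GLOko 6 11 stayed changed, and *Nkx2-9* had an adjusted p = 0.0822 by limma. With the covariate 6 of the 12 stayed changed. Median gene length was 4100 bases for the 12 higher and 1877 bases for the 12 lower genes.

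Promoters of RefSeq (build GRCm38.p6, 250 bases before to 50 after the start) matched 11730 of the tested genes by symbol, and were searched on both strands for 4 short motifs. A gene counted as holding a motif where any of its promoters did. ACGTG is the core of the element bound by hypoxia-inducible factors. It was held by 37.5% of 710 higher genes, 28.2% of 687 lower genes and 27.9% of 10333 genes that were not called. Leaving out the genes of the lists of low oxygen, glycolysis, glycogen, the respiratory chain and the mitochondrial genome, the share was 35.3% of 665 higher genes. GCGTG, the other form of this core, was in 63.0% of higher, 55.0% of lower and 53.7% of genes not called, and CACGTG, the E-box that contains ACGTG, in 13.9%, 9.61% and 11.3%. CACCC, the core bound by Krüppel-like factors, was in 71.1% of higher, 62.0% of lower and 67.8% of genes not called. Over all 32851 promoters of the table, counted singly, ACGTG was in 19.6%. A gene can have several promoters, so this share is not comparable with the shares of genes. A gene with more promoters has more chances of a match, and the shares were not adjusted for that. All 4 motifs were more frequent among higher genes than among genes not called, so the difference was not particular to ACGTG. These are matches of letters, which says nothing of binding.

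Among the leading genes, 7 higher and 9 lower ones had a promoter in the table, of which 6 and 2 held ACGTG. The promoters of 3 higher genes and 1 lower gene, *Gprin1*, without a match, are shown with ACGTG on either strand in capitals, read in the direction of the gene. They are those of *Aox4* (chr1:58210147-58210446, plus strand), *Mgarp* (chr3:51396498-51396797, minus strand), *Crebrf* (chr17:26715400-26715699, plus strand) and *Gprin1* (chr13:54749825-54750124, minus strand). A CACGTG counts on both strands, so that *Crebrf* has 4 matches at 2 places.
Aox4: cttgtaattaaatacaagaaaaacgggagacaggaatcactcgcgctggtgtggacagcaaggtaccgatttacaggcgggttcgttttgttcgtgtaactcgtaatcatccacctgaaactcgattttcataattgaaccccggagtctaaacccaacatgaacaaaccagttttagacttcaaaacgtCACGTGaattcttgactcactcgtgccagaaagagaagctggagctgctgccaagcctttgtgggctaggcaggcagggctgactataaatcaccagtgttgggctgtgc
Mgarp: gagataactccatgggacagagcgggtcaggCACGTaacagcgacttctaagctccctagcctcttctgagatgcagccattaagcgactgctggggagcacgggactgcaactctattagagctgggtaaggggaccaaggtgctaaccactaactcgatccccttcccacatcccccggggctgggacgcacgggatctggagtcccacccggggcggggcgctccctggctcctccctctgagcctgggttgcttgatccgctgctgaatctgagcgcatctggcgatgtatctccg
Crebrf: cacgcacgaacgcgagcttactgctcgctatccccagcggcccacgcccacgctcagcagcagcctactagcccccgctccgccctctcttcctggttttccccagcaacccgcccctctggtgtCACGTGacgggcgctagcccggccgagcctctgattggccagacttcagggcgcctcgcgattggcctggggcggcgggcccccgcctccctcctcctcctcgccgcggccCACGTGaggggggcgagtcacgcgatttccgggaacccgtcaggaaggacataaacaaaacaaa
Gprin1: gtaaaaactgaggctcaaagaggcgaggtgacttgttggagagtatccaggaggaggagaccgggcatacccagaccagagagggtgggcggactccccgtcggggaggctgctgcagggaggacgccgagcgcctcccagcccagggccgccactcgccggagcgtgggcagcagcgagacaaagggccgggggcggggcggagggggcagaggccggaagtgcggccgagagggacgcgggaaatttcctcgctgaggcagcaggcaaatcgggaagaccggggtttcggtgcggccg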

How the data were processed

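The submitters' processing notes name STAR and mm10, and the authors deposited FPKM of 54532 genes with gene length and biotype. The STAR version and the use of strand in counting were not stated in the labels or methods. FPKM times length gave whole reads in 100% of values (within 0.01). After scaling of each embryo by median-of-ratios factors and addition of 0.1, log2 values of 17573 genes with a mean of at least 0.1 FPKM were compared with limma 3.58.1 (R 4.3.3, trend and robust). Limma's two-sided p values were adjusted after Benjamini and Hochberg. The deposited values are FPKM, and the count test named in the study's methods was not run, although whole reads could be recovered. Limma-voom on the recovered reads, an alternative, called 2062 genes. The fit was first tested on simulated data. Python 3.11.15 was used for summaries.

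The members, the 82 gene lists and the tests were chosen with earlier results of these data known. The text names the 12 higher and 12 lower genes of largest change among those without overlap and with at least 1 FPKM in a group, and up to 3 genes per direction with the smallest p in each list, symbol family or biotype. Genes of 5 lists (low oxygen, glycolysis, glycogen, respiratory chain, mitochondrial genome), *Traf7* and *Klf2* were kept out of the leading genes. Length bins, lists and families are described by counts and medians without a test. Of 423 genes so named or used as markers, 68 overlap another gene of at least 1 FPKM and are uncertain. The labels do not give litters, so p-values measure the spread between embryos. RNA integrity of the libraries is not known, and its part in the differences by gene length was not tested. In the table, 27 gene names had become dates. The table of the other 14 embryos was not used here. Some genes and 1 list are not reported here.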

Additional observations from a re-analysis of the deposited data

Results flagged for a closer look

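Values of single embryos far from the other 5 of their group were looked for by Dixon's ratio in 212 groups of 6, of which 25 had one, and chance alone gives about 1 in 20. For the mean of a gene list on the log2 scale relative to WT, GLOko 2 stood apart in platelet and megakaryocyte genes (2.96), protocadherins (1.01), cytosolic ribosomal proteins (0.47), the proteasome (-0.82), the spliceosome (-0.63), DNA replication (-0.92), autophagy (0.28), MHC class I and interferon genes (0.53), snoRNA host genes (1.32), miRNA biogenesis and RNA decay (-0.35) and nuclear pore genes (-0.31). GLOko 1 stood apart in cardiomyocyte genes (-4.28), proepicardium and smooth muscle (-1.26) and YAP and TEAD targets (-0.13). Among WT embryos these were WT 6 in neural crest (-0.27), WT 3 in ATF4 genes (0.49) and WT 2 in imprinted genes (-0.29).

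Among the leading genes, GLOko 2 was far above the other GLOko embryos in *H2-Ab1* (32.5 FPKM), *Mgarp* (21.3 FPKM), *Crebrf* (7.82 FPKM) and *Fos* (3.08 FPKM). WT 3 was far above the other WT embryos in *A2m* (1.00 FPKM), *H2-Ab1* (4.95 FPKM), *Mgarp* (5.56 FPKM) and *1700001L05Rik* (0.584 FPKM).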

How the results depend on the processing

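The count of changed genes (1833 with all settings as described) was 1208 with no filter on low values, 2799 with sample weights, 461 with detected genes as a covariate and 509 without GLOko 1 and WT 4, and it ran from 731 (without WT 2) to 2492 (without GLOko 2) when 1 embryo was left out. Genes changed by at least 1 log2 unit (344) numbered 115 with 1 added before log2, 131 with the covariate, 157 without GLOko 1 and WT 4, and 206 to 518 without 1 embryo. Changed genes that are not protein_coding (96) numbered 26, 33 and 44 to 150 in the same order of covariate, those 2 embryos and 1 embryo left out. Changed genes in the tissue lists (46) numbered 107 with weights, 14 with the covariate, 19 without GLOko 1 and WT 4, 80 without GLOko 1, GLOko 2 and GLOko 6, and 22 to 66 without 1 embryo. In the family lists (376) they numbered 241 without trend and robust settings, 611 with weights, 108 with the covariate, 117 without GLOko 1 and WT 4, and 150 to 541 without 1 embryo. In the symbol families (519) they numbered 331 with no filter, 345 without trend and robust settings, 813 with weights, 106 with the covariate, 131 without GLOko 1 and WT 4, and 199 to 726 without 1 embryo. The log2 fold change of the longest minus the shortest bin (0.41) was 0.25 with 1 added, 0.31 with weights, 0.29 with the covariate and 0.29 without GLOko 1, GLOko 2 and GLOko 6, and stayed between 0.33 and 0.46 without 1 embryo. The cause of these differences was not tested.

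Fits with the replicate number as a replicate block gave 1010 changed genes, 63 that are not protein_coding, 220 in the family lists and 268 in the symbol families. The deviations of equally numbered embryos correlated at -0.05 to 0.09, and 1 of 6 GLOko embryos correlated best with the WT embryo of its number. The labels do not give litters, so these values cannot settle whether the numbers pair embryos. Among 393 named genes that changed, the alternatives turned no direction, and 146 passed the test with the covariate and 154 without GLOko 1 and WT 4.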

Other observations

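Transport along microtubules and ion channels were not described above. Of 47 tubulins and microtubule proteins 0 were higher and 6 lower, among them the neuronal *Tubb4a* (-0.79), the tubulin-folding cofactor *Tbcb* (-0.60) and *Dpysl4* (-1.05). Of 57 kinesins and dyneins 5 were higher and 4 lower. The heavy chains *Dync1h1* (0.93) and *Dync2h1* (0.78) rose, and the kinesin light chains *Klc1* (-0.57) and *Klc2* (-0.59) fell. With detected genes as a covariate 1 gene of the first list was lower, and 1 of the second was higher and 0 lower. Voltage-gated and calcium channels had 6 higher and 3 lower of 92 (9.78% changed, near the 10.4% of all genes). The calcium release channels *Itpr1* (0.89) and *Itpr3* (1.39) were among the higher ones.

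By chromosome, the share of changed genes ran from 6.51% on chromosome 18 to 13.4% on chromosome 19. The X chromosome had 44 higher (7.05%) and 15 lower (2.40%) of 624 tested genes. Chromosome 11 had 64 higher (4.67%) and 94 lower (6.86%) of 1370. Over all genes 5.42% were higher and 5.01% lower. The paper excluded neither male nor female embryos, and the sex of each embryo was not considered here. These counts and shares were not tested.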
